A study of Macaca mulatta with 36 samples.

Results

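Heat shock proteins and their co-chaperones were read in the hippocampus of rhesus macaques with simian immunodeficiency virus encephalitis (SIVE) and of uninfected controls. Members were all genes whose symbol on the array names a heat shock protein of the HSPA, HSPB, HSPH or HSP90 families or a protein named for binding one, a J-domain protein of the DNAJA, DNAJB or DNAJC classes, a BAG protein numbered 1 to 6, or a heat shock factor. This gave 59 members of the 14132 genes on the array. The 59 comprise 8 HSP70 and HSP110 genes, 3 HSP90 genes, 5 small heat shock genes, 4 DNAJA, 9 DNAJB and 19 DNAJC genes, 6 BAG genes, 3 heat shock factors, and the HSP-binding genes HSPBP1 and HSPBAP1. HSPA1A, HSPA5, HSPB1, HSPD1 and HSPE1 were not analysed here.

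The study hybridized hippocampal total RNA of 18 male macaques to Affymetrix rhesus arrays, with 2 arrays per animal and 36 in all. The SIVE group held 9 animals aged 2 to 6 years, of which 4 had received an anti-CD8 antibody and 5 had not. The Control group held 9 uninfected animals aged 3 to 8 years, of which 2 had received anti-CD8 and 7 had not. All 4 SIVE animals given anti-CD8 were 6 years old, the untreated SIVE animals 2 to 5, the treated controls 3 to 4 and the untreated controls 3 to 8. No infected animal without encephalitis was analysed, so infection and encephalitis cannot be told apart here. The sources do not state whether the arrays of an animal read 1 RNA or separate pieces of tissue, and the animal is the replicate throughout.

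Chaperones hold unfolded proteins and help them fold. HSP70 does so in a cycle of ATP binding and hydrolysis: J-domain proteins bring it clients and start hydrolysis, and nucleotide exchange factors, among them the BAG and HSP110 proteins, release the client. Small heat shock proteins bind unfolding proteins without ATP, HSP90 acts late on kinases and hormone receptors, and heat shock factors switch the genes on under stress. BAG3 joins HSP70 to HSPB8, and this complex is known for carrying aggregated proteins to autophagy.

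Of the 59 members, 3 rose in SIVE, 2 fell and 54 did not pass the test. HSPB8 rose 2.56-fold by the brighter of its 2 probe sets, and BAG3, its partner, rose 1.99-fold. The other HSPB8 probe set did not pass. HSPA9, the mitochondrial HSP70, rose 1.20-fold, and the J-domain genes DNAJB5 and DNAJC25 fell. The test was limma's on log2 values of all 52707 probe sets, with Benjamini-Hochberg adjustment and a threshold of 0.05. Of the members, 5.08% were called higher and 3.39% lower, against 5.72% and 1.51% of all genes. The share of members called in either direction was 8.47%, and that of all genes was 7.23%. The members' share was thus near that of the array as a whole, and among the members HSPB8 and BAG3 had the largest differences. The median difference was 0.05 over the members and -0.02 over all genes (log2). An unadjusted p under 0.05 was found for 19 members, 32.2% of them, and for 25.6% of all genes. In this bulk tissue, fewer cells of a type and less RNA per cell cannot be told apart.

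HSPB8 is the small heat shock protein that binds BAG3. Its signal (probe set MmugDNA.4113.1.S1_at) ran from 9.79 to 10.56 on the log2 scale in SIVE animals with a median of 10.18, against 8.55 to 9.18 in Control animals with a median of 8.78. The groups did not overlap: the lowest SIVE animal, SIVE 6, lay above the highest control, Control 3. The means were 10.16 ± 0.26 in SIVE and 8.81 ± 0.23 in Control animals (SD, n = 9 each). The difference was 1.35 (SE 0.11, 95% interval 1.12 to 1.59), with a limma adjusted p of 8.48e-08.

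BAG3, the nucleotide exchange factor that links HSP70 and HSPB8, was read by a single probe set, MmuSTS.2144.1.S1_at. It ran from 8.19 to 8.95 with a median of 8.53 in SIVE animals, against 7.33 to 7.76 with a median of 7.56 in Control animals. Here too the lowest of the 9 SIVE values exceeded the highest of the 9 controls. The lowest SIVE value was that of SIVE 1 and the highest that of SIVE 7. The means were 8.54 ± 0.21 in SIVE and 7.55 ± 0.14 in Control animals (SD, n = 9 each), a difference of 0.99 (SE 0.08, 95% interval 0.82 to 1.17, limma adjusted p = 1.26e-07).

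HSPA9, also called mortalin, pulls proteins into the mitochondrial matrix and folds them there. Its signal (MmuSTS.2529.1.S1_at) ran from 10.17 to 10.5 with a median of 10.29 in SIVE animals, against 9.87 to 10.15 with a median of 10.08 in Control animals. The groups were separated by a narrow gap, with SIVE 1 the lowest SIVE animal and Control 6 the highest control. The means were 10.33 ± 0.13 and 10.06 ± 0.08 (SD, n = 9 each), a difference of 0.26 (SE 0.06, limma adjusted p = 0.00784). These were the 3 members whose SIVE values all lay above every control, 5.08% of the members, where 1.84% of all genes did so. In no member did all SIVE values lie below every control, and 0.106% of all genes did.

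DNAJB5, a J-domain protein of the class that works with cytosolic HSP70, fell in SIVE. Its signal (MmugDNA.23593.1.S1_at) ran from 7.56 to 7.99 with a median of 7.78 in SIVE animals, against 7.93 to 8.32 with a median of 8.04 in Control animals. The ranges overlapped, and 7 of the 9 SIVE animals lay below the lowest control. The means were 7.77 ± 0.16 in SIVE and 8.09 ± 0.14 in Control animals (SD, n = 9 each), a difference of -0.32 (SE 0.07, limma adjusted p = 0.0105). The call was lost when only untreated animals entered the fit (adjusted p = 0.0541) and when the probe sets of a gene were averaged (adjusted p = 0.129).

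DNAJC25, a J-domain protein of the mixed DNAJC class, ran from 9.52 to 10.27 with a median of 9.85 in SIVE animals, against 9.94 to 10.64 with a median of 10.24 in Control animals (MmugDNA.14104.1.S1_at). The ranges overlapped, and 6 SIVE animals lay below the lowest control. The means were 9.86 ± 0.26 in SIVE and 10.26 ± 0.22 in Control animals (SD, n = 9 each), a difference of -0.39 (SE 0.11, limma adjusted p = 0.0398). This call was kept in 13 of 31 alternative fits, 5 of the 18 that left out 1 animal among them, with the same sign in all 31. Of the same 31 fits, HSPB8 and BAG3 were called in 31, HSPA9 in 30 and DNAJB5 in 29.

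**Figure D1:**
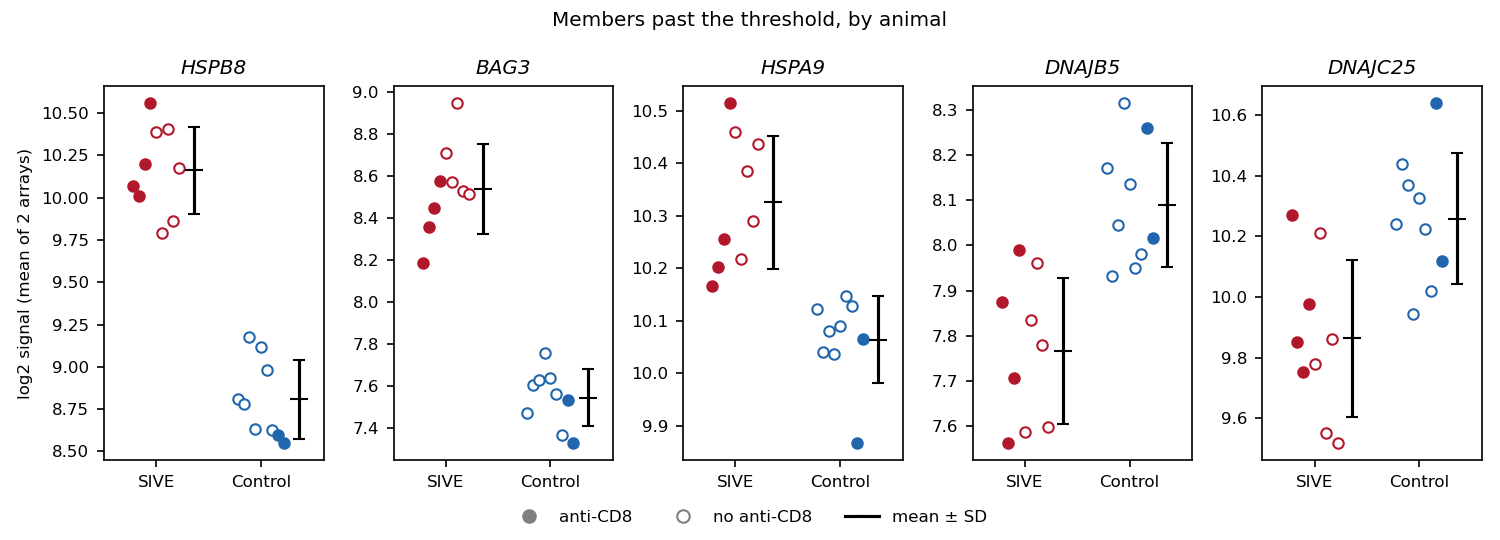
Log2 signal of the 5 members past the threshold in each animal (mean of 2 arrays), SIVE left and Control right in each panel, with filled points for animals given anti-CD8 and bars for the mean ± SD of 9 animals. SIVE and Control points do not overlap for HSPB8, BAG3 and HSPA9, and overlap for DNAJB5 and DNAJC25; each panel has its own axis.

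The other HSP70 and HSP110 genes did not pass the test. HSPA8, the constitutive cytosolic HSP70 that also uncoats clathrin vesicles, ran from 10.78 to 11.20 with a median of 11.08 in SIVE animals, against 10.91 to 11.63 with a median of 11.18 in Control animals. Its difference was -0.18 (SE 0.08, limma adjusted p = 0.228), and 2 SIVE animals lay below the lowest control. HSPA8's other probe sets differed by -0.29 (limma adjusted p = 0.0563) and 0.19 (adjusted p = 0.854), neither of them called. HSPA6, an HSP70 known in human cells for being made only under strong stress, differed by -0.17 (limma adjusted p = 0.223). The HSP110 exchange factors HSPH1, HSPA4 and HSPA4L differed by 0.16, 0.11 and 0.25, and HSPA12A and HSPA12B, distant HSP70 relatives, by 0.01 and -0.03. None of these 7 genes had an adjusted p under 0.05.

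No HSP90 gene passed the test. HSP90AB1, the constitutive cytosolic HSP90, ran from 12.14 to 12.64 with a median of 12.41 in SIVE animals, against 12.14 to 12.50 with a median of 12.31 in Control animals. Its difference of 0.03 (SE 0.06) had a 95% interval from -0.11 to 0.17, the narrowest of the 3, and a limma adjusted p of 0.835. HSP90AA1, the stress-inducible form, ran from 5.41 to 7.12 with a median of 6.61 in SIVE animals, against 5.72 to 7.09 with a median of 6.74 in Control animals. It differed by -0.21 (SE 0.23, limma adjusted p = 0.632), and its spread within groups was several times that of HSP90AB1. HSP90B1, the HSP90 of the endoplasmic reticulum, differed by 0.05.

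Apart from HSPB8, the small heat shock genes HSPB3, HSPB6, HSPB7 and HSPB9 did not pass. HSPB3 and HSPB9 had means under the median probe set level of 5.65. Their differences ran from -0.28 for HSPB6 to 0.34 for HSPB3, whose limma adjusted p was 0.121. HSPB3 was called in the fit on all 36 arrays with the animal as a random block (adjusted p = 0.0488). HSPB3, HSPB6 and HSPB7 are known chiefly from muscle.

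Among the BAG genes, only BAG3 passed. BAG6, which escorts membrane proteins that have not been inserted, ran from 8.98 to 9.70 with a median of 9.29 in SIVE animals, against 8.79 to 9.84 with a median of 8.98 in Control animals. The highest of all was Control 8, and the difference of 0.24 (SE 0.13) had a limma adjusted p of 0.278. Without Control 8, BAG6 and DNAJC17 were called higher in SIVE, which made 5 members higher, and 1, DNAJB5, lower. The share of all genes called in that fit is not given, so this count is not set against the array. BAG1, BAG2, BAG4 and BAG5, exchange factors for HSP70 in the cytosol, differed by -0.16, 0.09, 0.06 and -0.14. BAG2 lay under the median probe set level, and its second probe set was called lower.

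The 4 DNAJA genes all had positive differences, from 0.05 to 0.22, and none passed. DNAJA1, a general cytosolic partner of HSP70, ran from 9.95 to 11.11 with a median of 10.70 in SIVE animals, against 9.84 to 10.86 with a median of 10.67 in Control animals. Its difference was 0.07 (SE 0.15, limma adjusted p = 0.818), and without Control 8 it was -0.02. DNAJA4 had the largest difference of the class. It ran from 8.88 to 9.98 with a median of 9.65 in SIVE animals, against 8.88 to 9.84 with a median of 9.21 in Control animals, a difference of 0.22 (SE 0.16, limma adjusted p = 0.439). DNAJA3, the mitochondrial member that works with HSPA9, differed by 0.14 (SE 0.05, limma adjusted p = 0.116), with 6 SIVE animals above the highest control.

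Of the 9 DNAJB genes, 3 had positive and 6 negative differences, with a median of -0.09. DNAJB6, known for holding back aggregation of polyglutamine proteins, ran from 8.01 to 10.49 with a median of 10.19 in SIVE animals, against 7.46 to 10.41 with a median of 10.17 in Control animals. The medians were close, and 2 SIVE animals and 1 control lay far below the others. Its difference of -0.14 (SE 0.39, limma adjusted p = 0.870) had the widest 95% interval of all members, -0.96 to 0.68. DNAJB1, the main stress-inducible partner of cytosolic HSP70, differed by -0.20 (SE 0.07, limma adjusted p = 0.0991), with 7 SIVE animals below the lowest control and 1 above the highest, and was called lower in the fit on all 36 arrays (adjusted p = 0.0254). DNAJB4 differed by 0.31 (limma adjusted p = 0.136) and DNAJB11, the partner of the HSP70 of the endoplasmic reticulum, by 0.17 (adjusted p = 0.173). DNAJB7 and DNAJB8, known from testis, had means under the median probe set level. DNAJB8 differed by -0.31 (limma adjusted p = 0.0729).

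The 19 DNAJC genes, a class whose members share little beyond the J domain, ran from -0.39 for DNAJC25 to 0.31 for DNAJC17, with 13 positive and 6 negative differences. DNAJC6, or auxilin, brings HSPA8 to clathrin coats in neurons. It ran from 10.82 to 11.48 with a median of 11.31 in SIVE animals, against 10.56 to 11.51 with a median of 11.40 in Control animals, a difference of -0.07 (SE 0.12, limma adjusted p = 0.774). DNAJC13, an endosomal J-domain protein, differed by 0.20 (SE 0.06, limma adjusted p = 0.0774) and was called in the fit on all 36 arrays. DNAJC10, a reductase of the endoplasmic reticulum, differed by 0.18 and DNAJC19, of the mitochondrial import motor, by 0.15. DNAJC22 and DNAJC28 had means under the median probe set level, and DNAJC22 differed by -0.24 (limma adjusted p = 0.0884).

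The heat shock factors did not pass the test. HSF1, the main factor of the stress response, ran from 7.04 to 7.97 with a median of 7.66 in SIVE animals, against 7.39 to 8.10 with a median of 7.45 in Control animals. Its difference was 0.11 (SE 0.11, limma adjusted p = 0.589). HSF4, known chiefly from the lens, ran from 6.09 to 6.58 with a median of 6.28 in SIVE animals, against 6.11 to 6.74 with a median of 6.52 in Control animals, a difference of -0.16 (SE 0.09, adjusted p = 0.306). HSF2 differed by 0.08. Heat shock factor activity is set mainly after translation, and the arrays read mRNA.

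HSPBP1, an exchange factor that restrains HSP70, ran from 7.99 to 9.39 with a median of 9.17 in SIVE animals, against 9.11 to 9.82 with a median of 9.30 in Control animals. Its difference of -0.36 (SE 0.15, limma adjusted p = 0.165) was the largest of the members that did not pass, and the lowest animal was SIVE 9. It was called lower in the fit on all 36 arrays (adjusted p = 0.0325). That fit called 5 members higher and 4 lower, where it called 7.92% of all genes higher, 2.99% lower and 10.9% in either direction. HSPBAP1 differed by 0.04. Over the 54 members that did not pass, the absolute difference had a median of 0.146 and reached 0.364 (log2). For 47 of the 54 the whole 95% interval lay within a 1.5-fold change in either direction.

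**Figure D2:**
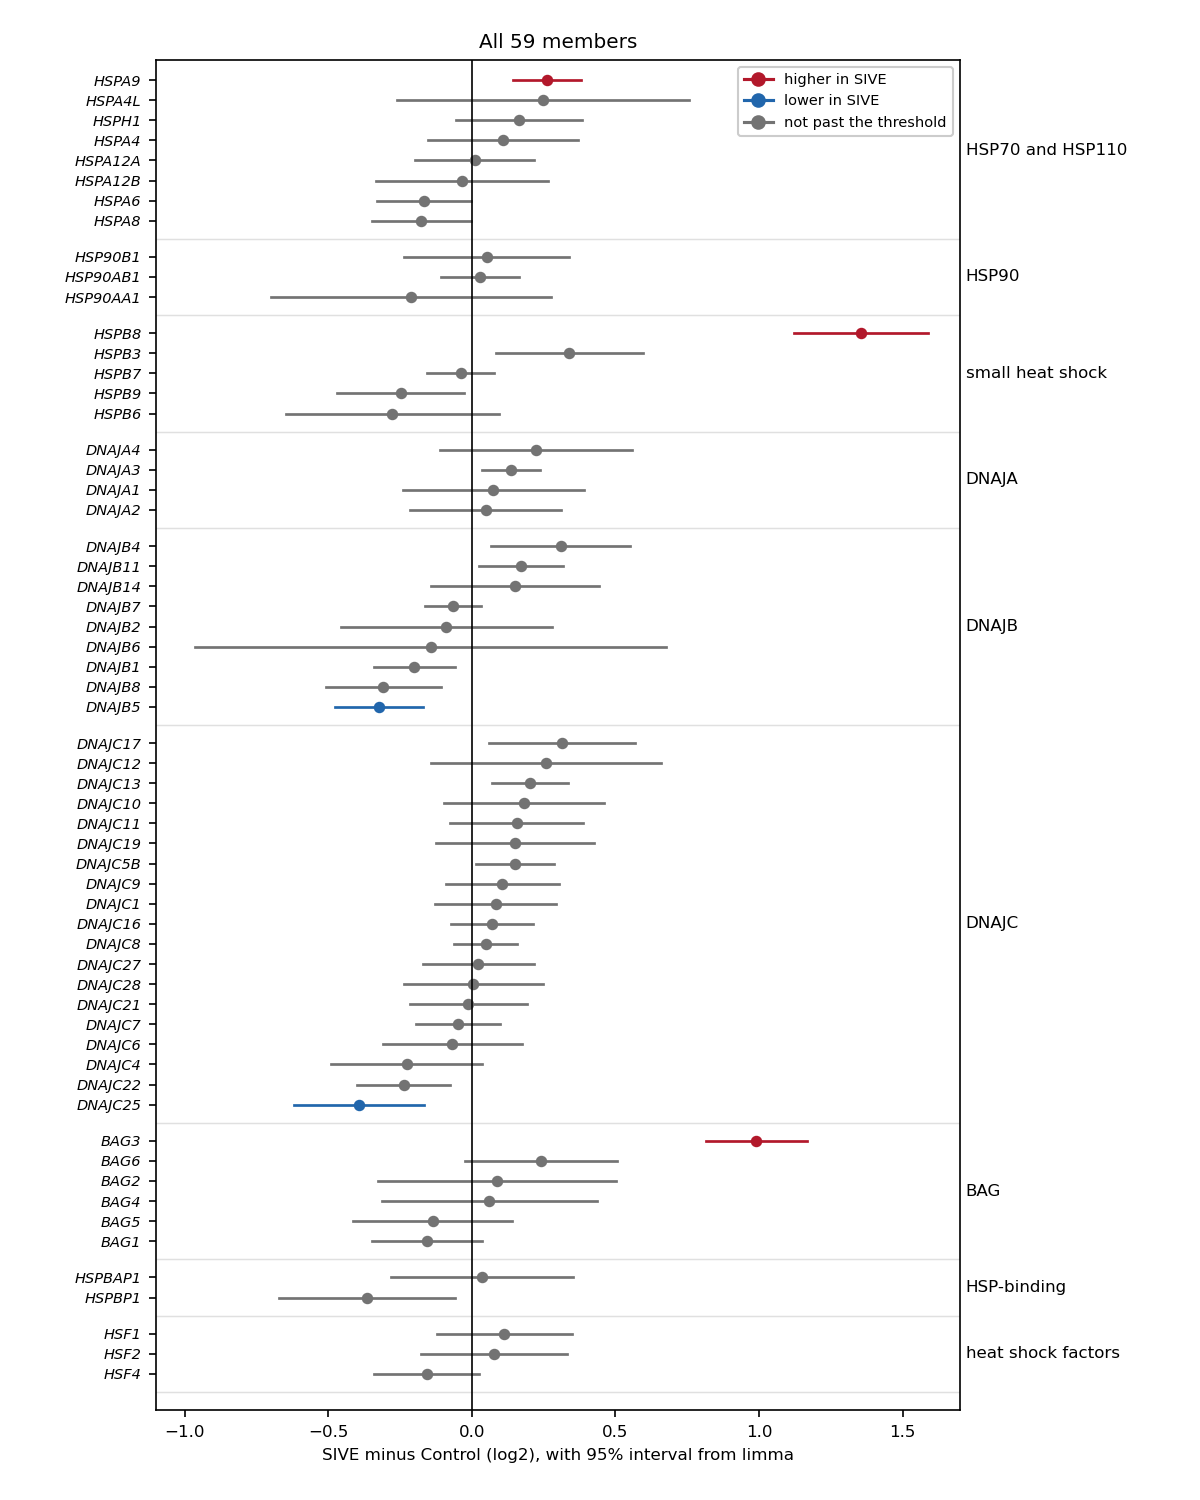
SIVE minus Control (log2) with its 95% limma interval for each of the 59 members, ordered by family, in red where called higher in SIVE, blue where called lower and grey otherwise (9 animals a group). HSPB8 at 1.35 and BAG3 at 0.99 stand beyond all other members, which lie between -0.39 and 0.34, and the interval of DNAJB6 is the widest.

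The array reads 37 members with more than 1 probe set and 22 with 1. The values above are those of the brightest probe set of each gene over all arrays, and 64 further probe sets remained. Of these, 0 were called higher by limma and 1 lower, where 4.65% and 1.13% of the further probe sets of all genes were called. Their difference had the same sign as the gene's representative in 34 cases and the opposite sign in 30.

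HSPB8's second probe set (MmugDNA.7670.1.S1_at) did not show the rise. It averaged 7.87 ± 0.42 in SIVE and 7.67 ± 0.50 in Control animals (SD, n = 9 each), a difference of 0.20 (SE 0.20, limma adjusted p = 0.593). The mean of both HSPB8 probe sets still differed by 0.78, which was called, with an adjusted p of 2.95e-04. HSPA9's other probe sets gave differences of 0.14 (adjusted p = 0.106) and 0.23 (adjusted p = 0.196), with the same sign and no call. DNAJB5's second probe set gave -0.21 (SE 0.18, adjusted p = 0.525). BAG2's second probe set (MmugDNA.2328.1.S1_at) averaged 4.16 ± 0.13 in SIVE and 4.46 ± 0.19 in Control animals, under the median probe set level, and was called lower by 0.29 (adjusted p = 0.0323), while its brighter probe set was not called. BAG3 and DNAJC25 rest on a single probe set each.

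**Figure D3:**
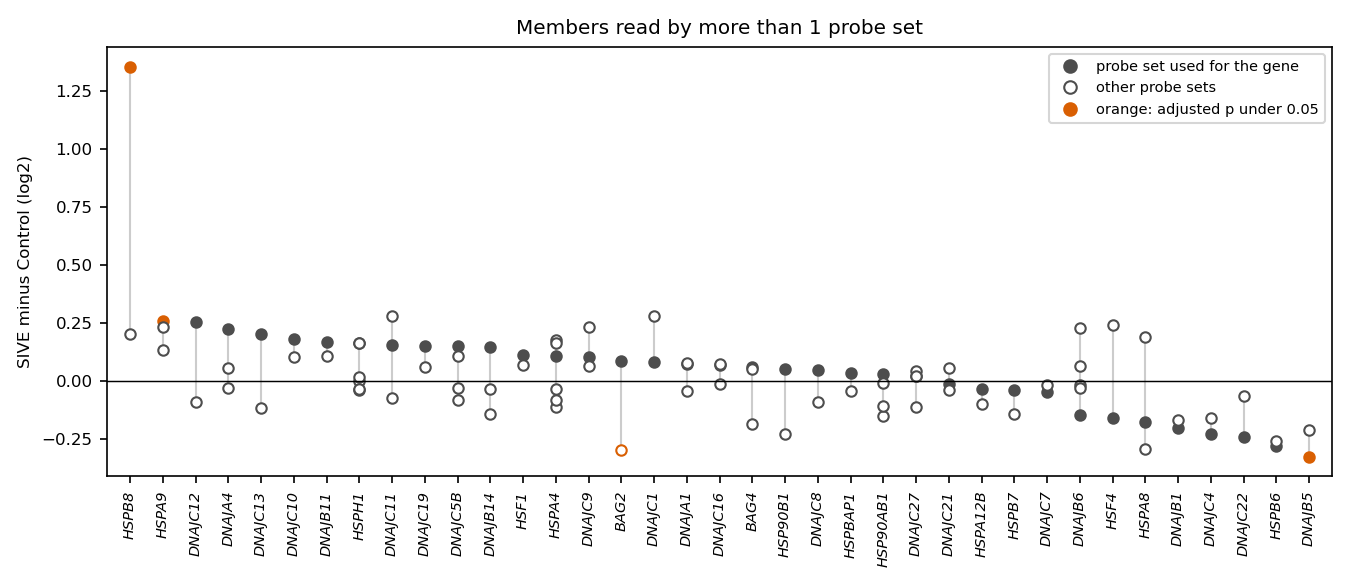
SIVE minus Control (log2, 9 animals a group) for the 37 members read by more than 1 probe set, with the probe set used for the gene filled, the others open, and orange for an adjusted p under 0.05. The 2 HSPB8 probe sets lie at 1.35 and 0.20, farther apart than those of any other member.

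Anti-CD8 had been given to 4 SIVE animals and 2 controls, so the contrast was also made within treated and within untreated animals, with 1 mean per combination and a shared spread in limma. Among treated animals, 2 members were higher in SIVE, HSPB8 and BAG3, and 0 were lower, where 1.38% and 0.127% of all genes were, or 1.51% in either direction. Among untreated animals, 3 members were higher, HSPB8, BAG3 and HSPA9, and 0 were lower, where 3.64% and 1.13% of all genes were, or 4.77% in either direction. The treated contrast sets 4 animals against 2.

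HSPB8 ran from 10.01 to 10.56 in treated SIVE animals, and the treated controls were at 8.55 and 8.60. Untreated SIVE animals ran from 9.79 to 10.41, against 8.63 to 9.18 in untreated controls. SIVE animals lay above controls with and without treatment: the difference was 1.64 (SE 0.20, limma adjusted p = 1.79e-04) with anti-CD8 and 1.25 (SE 0.13, adjusted p = 1.31e-05) without. The difference between these effects was 0.39, with a 95% interval from -0.12 to 0.89 and a limma adjusted p of 1.00.

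BAG3 ran from 8.19 to 8.58 in treated SIVE animals, against 7.33 and 7.54 in the treated controls. Untreated SIVE animals ran from 8.51 to 8.95, against 7.37 to 7.76 in untreated controls. The difference was 0.96 (SE 0.13, adjusted p = 7.49e-04) with anti-CD8 and 1.08 (SE 0.09, adjusted p = 6.50e-07) without, and between these effects -0.12 (95% interval -0.46 to 0.22). For HSPA9 it was 0.32 (SE 0.10, adjusted p = 0.151) with anti-CD8 and 0.27 (SE 0.07, adjusted p = 0.0404) without. DNAJB5 and DNAJC25 differed by -0.35 and -0.42 with anti-CD8 and by -0.32 and -0.44 without, none of them past the threshold.

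The difference between the 2 effects passed the limma threshold for 0 of the 59 members and 0.00% of all genes, and 0 members had an unadjusted p under 0.05. The smallest p belonged to DNAJC4, whose effect with anti-CD8 minus that without was 0.49 (95% interval -0.02 to 1.00), and to DNAJC28, at 0.46 (-0.03 to 0.95). Anti-CD8 against none within SIVE animals also gave 0 calls among the members (0.00% of all genes), with 11 members at an unadjusted p under 0.05, 18.6% of them, where 19.0% of all genes were. The smallest p there belonged to DNAJA1, lower by 0.51 in treated animals (SE 0.17, limma adjusted p = 0.304), and to DNAJC4, higher by 0.44 (SE 0.16, adjusted p = 0.304). DNAJA1 was at 9.95 and 10.15 in SIVE 2 and SIVE 3 and at 10.70 and 10.67 in the other treated SIVE animals, against 10.56 to 11.11 in untreated ones. Only SIVE 2 and SIVE 3 lay below the untreated range. BAG3 was 0.26 lower in treated SIVE animals (SE 0.10, limma adjusted p = 0.307). Within controls 0 members were called by limma and 14, or 23.7%, had an unadjusted p under 0.05, where 15.8% of all genes did, HSPA6 and HSPA12B with the smallest (adjusted p = 0.304 for both). HSPA12B was at 7.49 in Control 8 and 6.69 in Control 9, against 6.44 to 6.86 in untreated controls, so only Control 8 lay above that range. HSPA6 was at 6.70 and 6.72 in the treated controls, against 6.22 to 6.57 in untreated ones.

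Age and a sign of RNA quality were unevenly spread over treated and untreated animals. Within SIVE, animals given anti-CD8 were 6 years old and the untreated 2 to 5, so treatment and age cannot be told apart there. The 3′ minus 5′ signal of control genes, a measure known to be higher in fragmented RNA, was high in SIVE 2, SIVE 3 and Control 8, which were all given anti-CD8, and in no untreated animal. It ran from 0.104 to 1.19 in treated SIVE animals, against 0.205 to 0.466 in untreated ones, and was 1.45 and 0.172 in the treated controls, against 0.249 to 0.441 in untreated ones. With these 3 animals left out, 1 member had an unadjusted limma p under 0.05 for anti-CD8 within SIVE (1.69%, where 5.09% of all genes did) and 3 within controls (5.08%, where 7.20% did), and 0 were called within SIVE. The difference was then -0.19 for DNAJA1 and 0.31 for DNAJC4 within SIVE, and 0.13 for HSPA12B and 0.34 for HSPA6 within controls, where 1 treated animal was left and is assumed to vary like the others. The contrast of SIVE with Control animals given anti-CD8 then set 2 animals against 1, so its calls are not given.

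**Figure D4:**
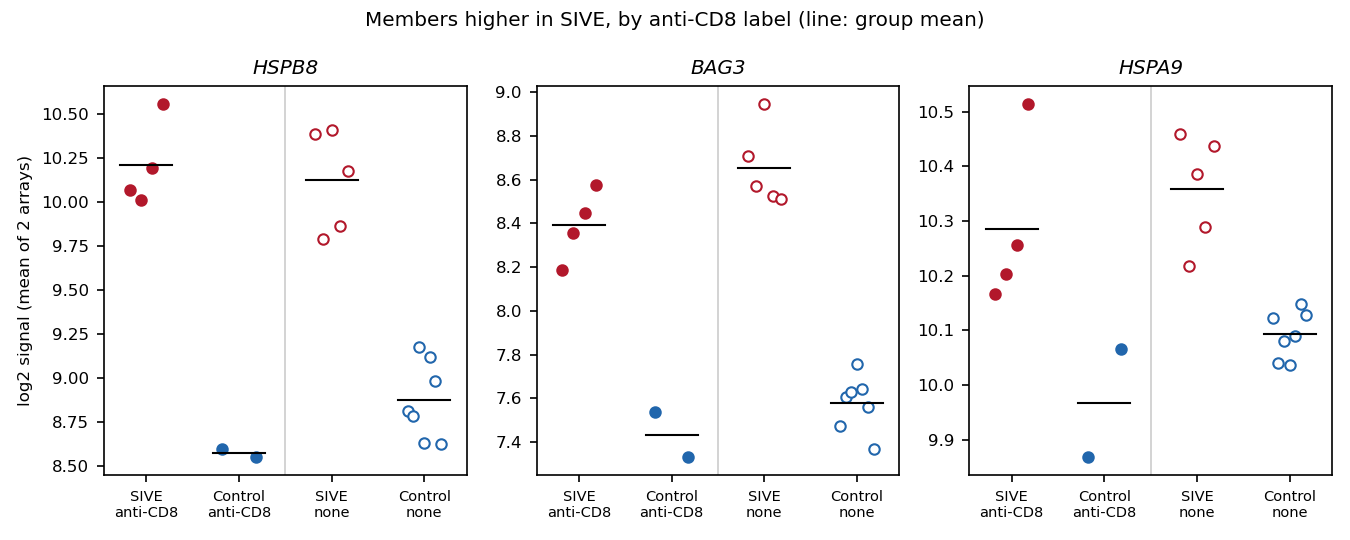
Log2 signal of HSPB8, BAG3 and HSPA9 by animal (mean of 2 arrays), for SIVE and Control animals with anti-CD8 (filled, 4 and 2 animals) and without it (open, 5 and 7 animals), with a line at each mean. SIVE animals lie above the controls of the same treatment in each panel; each panel has its own axis.

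Several members stood apart in animals with a high 3′ minus 5′ signal. This measure is the mean over 3 control genes of the log2 signal near the 3′ end minus that near the 5′ end. It averaged 0.442 ± 0.374 in SIVE and 0.415 ± 0.394 in Control animals (SD, n = 9 each; exact permutation test, two-sided p = 0.917). It was between 0.955 and 1.45 in 3 animals, SIVE 2, SIVE 3 and Control 8, and between 0.104 and 0.466 in the other 15. In 11 members, 18.6% of them, these 3 animals lay below all 15 others, where 9.68% of all genes did, and in 5 members they lay above all others (8.51% of all genes).

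DNAJB6 was at 8.01 in SIVE 2, 8.55 in SIVE 3 and 7.46 in Control 8, against 9.81 to 10.49 in the other SIVE animals and 9.999 to 10.41 in the other controls. HSP90AA1 was at 5.45, 5.41 and 5.72 in the same animals, against 6.25 to 7.12 in the other SIVE animals and 6.44 to 7.09 in the other controls. These are the members with the lowest values in the 3 animals relative to their groups. The other 9 below all others were BAG2, BAG4, BAG5, DNAJA1, DNAJC6, DNAJC10, DNAJC19, HSP90B1 and HSPA4. Those above all others were BAG6, DNAJB2, DNAJC11, HSF1 and HSPA12B. None of the 5 called members was among these 16. For HSPB8, BAG3 and HSPA9 this was fixed by the separation of the groups, so it does not bear on RNA quality. Relative to the rest of their group, HSPB8 stood at -0.17, 0.02 and -0.24 in SIVE 2, SIVE 3 and Control 8, and BAG3 at -0.22, -0.13 and -0.01 (log2). HSPA9 stood at -0.15, -0.10 and -0.22, against a difference of 0.26 between the groups. DNAJB5 stood at -0.24, -0.10 and 0.19, and DNAJC25 at -0.03, -0.13 and 0.43. The part of RNA quality in the members that stood apart was not tested. With the 3 animals left out, HSPB8, BAG3, HSPA9 and DNAJC17 were called higher and DNAJB5 lower. The share of all genes called in that fit is not given, so these calls are not set against the array.

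**Figure D5:**
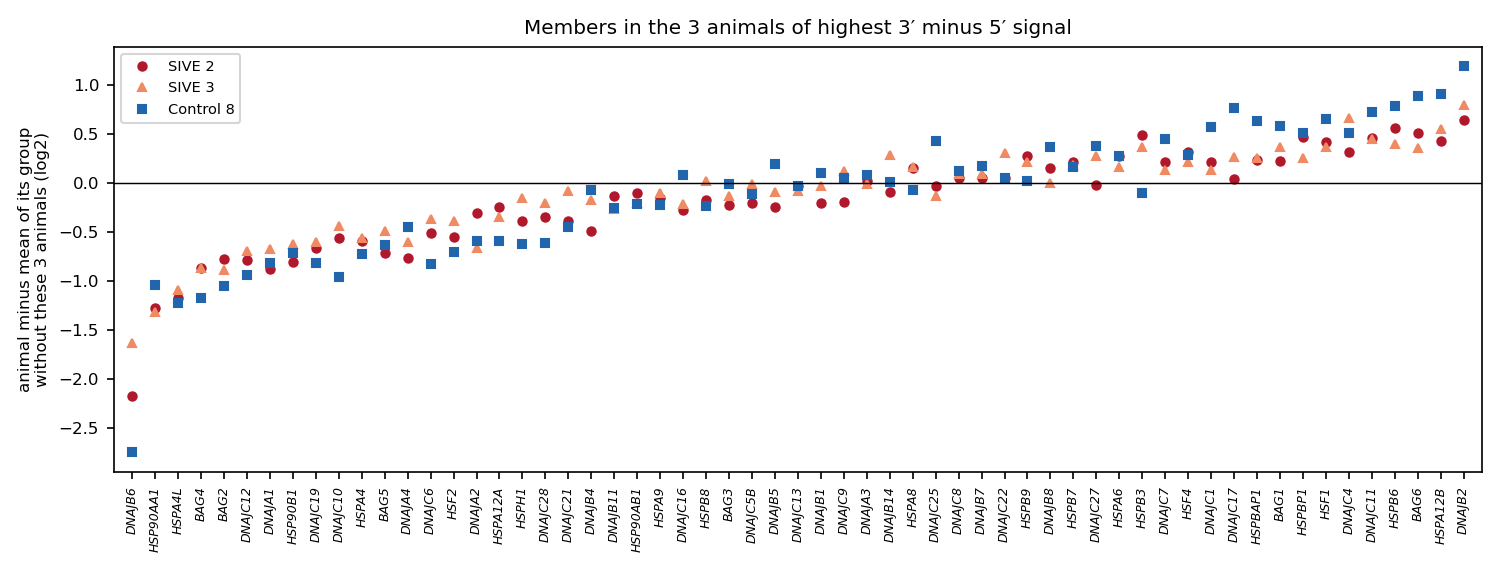
Each member's log2 signal in SIVE 2, SIVE 3 and Control 8, the 3 animals of highest 3′ minus 5′ signal, minus the mean of the same group without these animals, with members ordered by their mean deviation. DNAJB6 has the lowest mean deviation, and the called members HSPB8, BAG3 and HSPA9 lie between -0.24 and 0.02.

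Cell type markers moved with the groups. Of 8 reactive astrocyte markers, 6 were higher in SIVE and 0 lower by the same test, and their mean level was 9.40 to 10.21 in SIVE animals, against 8.25 to 8.60 in controls. Of 10 microglia and macrophage markers 4 were higher, while 5 had negative differences that did not pass. Their mean level was 7.23 to 7.82 in SIVE and 6.79 to 7.30 in Control animals. Of 7 endothelial and pericyte markers 3 were higher (6.50 to 7.39 in SIVE, 6.34 to 7.15 in Control animals), and of 5 T and cytotoxic lymphocyte markers 1 was (5.53 to 6.40 in SIVE, 5.25 to 5.69 in Control animals). Negative differences, none of them called, were found in 3 of these 7 and 2 of these 5. Of all genes, 5.72% were called higher and 1.51% lower.

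Falls were seen in 1 of 4 neuron markers (10.85 to 11.10 in SIVE, 10.98 to 11.50 in Control animals), 1 of 6 astrocyte markers, 2 of 3 oligodendrocyte markers and 1 of 5 oligodendrocyte precursor markers. Inhibitory neuron, hippocampal excitatory neuron, choroid plexus and red blood cell markers gave 0 limma calls. Of the hippocampal excitatory neuron list, 4 of 5 measured markers reached the median probe set level. The HSPB8 and BAG3 differences thus stood beside a rise of most reactive astrocyte markers, and the part of these cell types in the members' differences was not tested.

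Chaperone and stress genes outside the members were read from 5 lists, of which 59 of 79 genes were measured. Over all 5, limma called 7 higher and 0 lower in SIVE, with a median difference of 0.09. Of all genes, 5.72% were called higher and 1.51% lower, with a median difference of -0.02. The list of folding and unfolded protein response genes of the endoplasmic reticulum had 4 of 17 higher and a median of 0.20. PDIA6, a disulphide isomerase, ran from 9.64 to 10.10 with a median of 9.81 in SIVE animals, against 9.32 to 9.63 with a median of 9.38 in Control animals. It rose by 0.41 (SE 0.06, adjusted p = 1.99e-04) without overlap. ATF6, a sensor of unfolded proteins that becomes a transcription factor, ran from 7.42 to 7.58 with a median of 7.46 in SIVE animals, against 6.94 to 7.45 with a median of 7.17 in Control animals. It rose by 0.32 (SE 0.06, adjusted p = 0.00228). XBP1, the transcription factor switched on by the sensor ERN1, rose by 0.31 (adjusted p = 0.00257), and DDIT3, a factor of the late response, by 0.37 (adjusted p = 0.0416). PDIA3, at 0.31 (adjusted p = 0.0869), P4HB, at 0.29 (0.111), and ATF4, at 0.08, did not pass. Of the 17 differences, 12 were positive and 5 negative. The most negative were ERN1, at -0.19 (limma adjusted p = 0.173), and TRIB3, at -0.15 (limma adjusted p = 0.491).

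Among other genes induced by heat shock or linked to selective autophagy, 2 of 9 were higher, with a median of 0.18. CRYAB, the small heat shock protein alpha-B crystallin, ran from 11.99 to 12.53 with a median of 12.30 in SIVE animals, against 11.68 to 12.23 with a median of 11.99 in Control animals. It rose by 0.30 (SE 0.08, limma adjusted p = 0.0347) with overlapping ranges, and the mean of its probe sets differed by 0.11, which was not called. GADD45B, a stress-induced regulator of kinase signalling, ran from 8.51 to 9.35 in SIVE animals with a median of 8.86, against 8.29 to 8.83 in Control animals with a median of 8.44, and rose by 0.41 (SE 0.10, adjusted p = 0.0176). SQSTM1 and OPTN, receptors that tie cargo to autophagosomes, differed by 0.21 and 0.28 (limma adjusted p = 0.121 and 0.123).

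Of 13 other HSP90 and HSP70 cofactors, 1 was higher, with a median of 0.09, and 9 differences were positive and 4 negative. The largest, 0.58 for PTGES3, did not pass (SE 0.19, limma adjusted p = 0.0844). ST13, which holds HSP70 in its client-bound state, ran from 7.58 to 8.12 with a median of 7.79 in SIVE animals, against 7.13 to 7.91 with a median of 7.45 in Control animals, and rose by 0.37 (SE 0.10, limma adjusted p = 0.0317). STUB1, the ubiquitin ligase that acts with HSP70 and BAG proteins, differed by -0.20 (adjusted p = 0.324). The 12 measured subunits of the CCT chaperonin and prefoldin gave 0 calls, a median of 0.08 and a range from -0.04 to 0.15. The 8 measured genes of mitochondrial protein quality control also gave 0 calls, with a median of 0.01, while the mitochondrial member HSPA9 rose. TRAP1, the mitochondrial HSP90, differed by 0.01. Of the 31 alternative fits, PDIA6 was called in 31, XBP1 and GADD45B in 30, ATF6 in 29, ST13 in 20, CRYAB in 18 and DDIT3 in 11, with the same sign in each.

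Within a group, the 5 called members were set against each other over the 9 animals, which gave 20 relations. By the exact permutation test, 0 had an adjusted p under 0.05, for r or for rho, while 1 had an unadjusted p under 0.05 for r and 2 for rho. HSPA9 and HSPB8 had r = 0.783 among SIVE animals (exact permutation p = 0.0164, adjusted p = 0.327) and rho = 0.70 (exact permutation p = 0.0433, adjusted p = 0.433). Without the 2 animals farthest from the median, r was 0.554. BAG3 and HSPA9 had r = 0.618 among SIVE animals (exact permutation p = 0.0722, adjusted p = 0.477) and rho = 0.73 (exact permutation p = 0.0311, adjusted p = 0.433), with r = 0.640 without the 2 farthest animals. HSPB8 and BAG3 had r = 0.462 among SIVE animals (exact permutation p = 0.210, adjusted p = 0.521) and 0.451 among Control animals (exact permutation p = 0.223, adjusted p = 0.521), with rho = 0.50 (exact permutation p = 0.178) and 0.60 (p = 0.0968). At 9 animals a group, no relation among the 5 members was shown within groups.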

How the data were processed

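The authors deposited log2 values per probe set, made with RMA per the submitters' processing notes; the log base was read from the range, which ends at 14.49. RMA normalizes arrays to each other, so a shift shared by all genes would not be seen. Of 52865 probe sets, 158 control and reporter sets were left out. Symbols came from GEO's platform annotation, which can be old: 24969 probe sets had 1 symbol, 361 several and 27535 none, and each gene took its probe set of highest mean over all arrays. Signal serves to choose a probe set and to say whether it reaches the median probe set level; across probe sets it does not measure relative amounts of RNA.

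The 2 arrays of an animal were averaged. With limma 3.58.1 (R 4.3.3), a two-sided moderated test (lmFit, eBayes) was run over 52707 probe sets, on 9 SIVE and 9 Control animals, and on 4 means for group by anti-CD8, with Benjamini-Hochberg adjustment and a threshold of 0.05. The fit was tested on simulated data. Single measures and relations used exact permutation tests (Python 3.11.15, scipy 1.17.1). The number of animals limits the precision.

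Values are given in full for called members and for the brightest and most different member of each family. From the other lists up to 4 called genes are given by smallest adjusted p, and in anti-CD8 contrasts the called members or the 2 of smallest p. Further members were named, and the rest are covered by the ranges and counts of their families. The members and lists were chosen with earlier results of these data known. Alternatives covered array centring, dim probe sets, averaged probe sets, 36 arrays, single arrays, covariates, subsets, a replicate block and each animal left out. No sequences or coordinates were used.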

Additional observations from a re-analysis of the deposited data

Results flagged for a closer look

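Among 48 sets of 9 animals (SIVE or Control, for each gene described in full and for the 3′ minus 5′ signal), 11 held an animal whose gap to its nearest neighbour exceeded Dixon's 95% critical value of 0.493 of the set's range. Chance alone gives about 1 in 20 for independent sets of normal values. These sets share the same 18 animals, so the count is not a test. Of the 11, 8 were Control 8, which also had the highest 3′ minus 5′ signal of all animals, 1.45, against 0.172 to 0.441 in the other controls.

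Control 8 was lowest in DNAJB6, at 7.46, against 9.999 to 10.41 in the other controls, and in HSP90AA1, at 5.72, against 6.44 to 7.09. It was also lowest in DNAJA1, at 9.84, against 10.54 to 10.86, in DNAJC6, at 10.56, against 11.30 to 11.51, and in HSPA9, at 9.87, against 10.04 to 10.15. It was highest in BAG6, at 9.84, against 8.79 to 9.13, and in HSF1, at 8.10, against 7.39 to 7.53. HSPA9 was called without this animal too.

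SIVE 9 was lowest in HSF1, at 7.04, against 7.50 to 7.97 in the other SIVE animals, and in HSPBP1, at 7.99, against 8.83 to 9.39. Control 6 was highest in DDIT3, at 8.11, against 7.68 to 7.86 in the other controls. All values are log2 signals.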

How the results depend on the processing

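HSPB8 and BAG3 were called higher in all 31 alternatives. The lower calls, 2 in the report, were 1 with averaged probe sets (DNAJC25), with technical replicate 1 only, with age as a covariate and without the 3 animals of highest 3′ minus 5′ signal (DNAJB5 in each), 1 among untreated animals only (DNAJC4, with DNAJB5 and DNAJC25 lost), and 4 with the anti-CD8 label as a covariate (DNAJB8 and DNAJC22 added). On all 36 arrays with the animal as a random block, 5 members were higher (DNAJC13 and HSPB3 added) and 4 lower (DNAJB1 and HSPBP1 added), and 11 list genes higher and 1 lower. List genes were also 1 lower with technical replicate 1 only, 3 higher with technical replicate 2 only and 2 lower among untreated animals. Leaving out 1 animal at a time gave 3 to 5 members higher and 1 to 3 lower, and 4 to 7 list genes higher and 0 lower. It gave 0 to 1 lower members in the contrast with anti-CD8 and 0 to 1 in that without. Without the 3 animals of highest 3′ minus 5′ signal, the contrast without anti-CD8 had 2 lower members. The cause of these shifts was not tested. Among the alternative fits, the replicate block included, shares of all genes called are given only for that on all 36 arrays.

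Signs turned in members that were never past the threshold. SIVE minus Control (log2) for DNAJB6 was 0.022 with averaged probe sets, 0.11 with the anti-CD8 covariate and 0.043 among untreated animals, and -0.45 to 0.076 with 1 animal left out. With averaged probe sets HSF4 was 0.042 and HSP90AB1 -0.058. With 1 animal left out HSP90AB1 ran from -0.0053 to 0.057 and DNAJA1 from -0.017, without Control 8, to 0.16. DNAJC6 was 0.063 with technical replicate 2 only.

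The replicate numbers did not pair the animals: over 9 pairs, same-numbered animals' deviations correlated at -0.488 to 0.0888, and 0 SIVE animals correlated best with their own number. The replicate block gave 2 members higher (BAG3 and HSPB8) and 1 lower (DNAJB5), and 3 list genes higher and 0 lower. HSPA9 had an adjusted p of 0.0607 under it.

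The number of animals, 9 a group, limits the precision: 7 of the 54 members that were not called have a 95% interval that reaches past 1.5-fold. Of the 59 members, 7 had a mean under the median probe set level of 5.65, where background takes a larger part of the signal. BAG3 and DNAJC25 rest on 1 probe set, and the HSPB8 rise was seen with 1 of its 2.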
